A study of Homo sapiens with 2 samples.

Results

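The genes described here encode the fibroblast growth factors (FGF), platelet-derived growth factors (PDGF) and vascular endothelial growth factors (VEGF), their receptors, and a few secreted partners. They were taken by symbol from the deposited expression table: every FGF with a number, FGFR1 to FGFR4, FGFRL1, FGFBP1 to FGFBP3, PDGFA to PDGFD, PDGFRA, PDGFRB, PDGFRL, VEGFA, VEGFB, VEGFC, VEGFD, PGF, FLT1, FLT4, KDR and CCBE1. The rule found 46 members among 56255 symbols, each on 1 row of the table. The study profiled RNA of A549, an established human lung adenocarcinoma line, as untreated wild-type cells (WT, 1 library) and as cells overexpressing MYOCD (1 library), both grown in DMEM with serum. The WT values are headed A549_rtt_RPKM, and what rtt stands for is not stated. The vector, the promoter that drove MYOCD, the time after its introduction, and whether the cells were a pool or a clone are not stated in the labels used here. Its product, myocardin, binds SRF and switches on SRF target genes in smooth and cardiac muscle. The MYOCD gene itself stood at 0.304 RPKM (reads scaled to the length of the gene model and to the size of the library) in WT and at 48.6 RPKM in MYOCD, which is the direction of the labels. With 1 library in each group, no value has a replicate error, no test was run, and a difference compares these libraries and not the conditions.

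FGFs, PDGFs and VEGFs are mostly secreted ligands that pair up receptor tyrosine kinases at the cell surface, after which the receptors signal through the RAS to ERK and PI3K to AKT routes. FGFs need heparan sulfate chains as partners. PDGFs act chiefly on mesenchymal cells through PDGFRA and PDGFRB, and VEGFs chiefly on blood and lymphatic endothelium through FLT1, KDR and FLT4. Carcinoma cells commonly make such ligands for neighbouring cells while lacking many of the receptors.

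Of the 46 members, 18 had at least 1 RPKM in at least 1 library and 28 were under 1 RPKM in both. A gene was called higher or lower when log2((MYOCD RPKM + 0.5)/(WT RPKM + 0.5)), hereafter the log2 change, was at least 1 in size. This is a threshold on size alone. By this rule CCBE1 and FGFR4 were higher in MYOCD, FGFR3 and PDGFB were lower, and the other 14 members past the filter lay under 2-fold. Over all genes past the same filter, 11.8% were called (2042 of 17350), 5.42% higher and 6.35% lower, and over the protein-coding genes alone 6.11% (754 of 12337). The 4 called members are 22.2% of 18, and with so few members this share is given as a description. The median log2 change of the 18 was 0.14, with 12 above 0 and 6 below, against -0.00 for all genes past the filter. Members past the filter are a selected subset, since a gene high in only 1 library enters through that library.

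**Figure D1:**
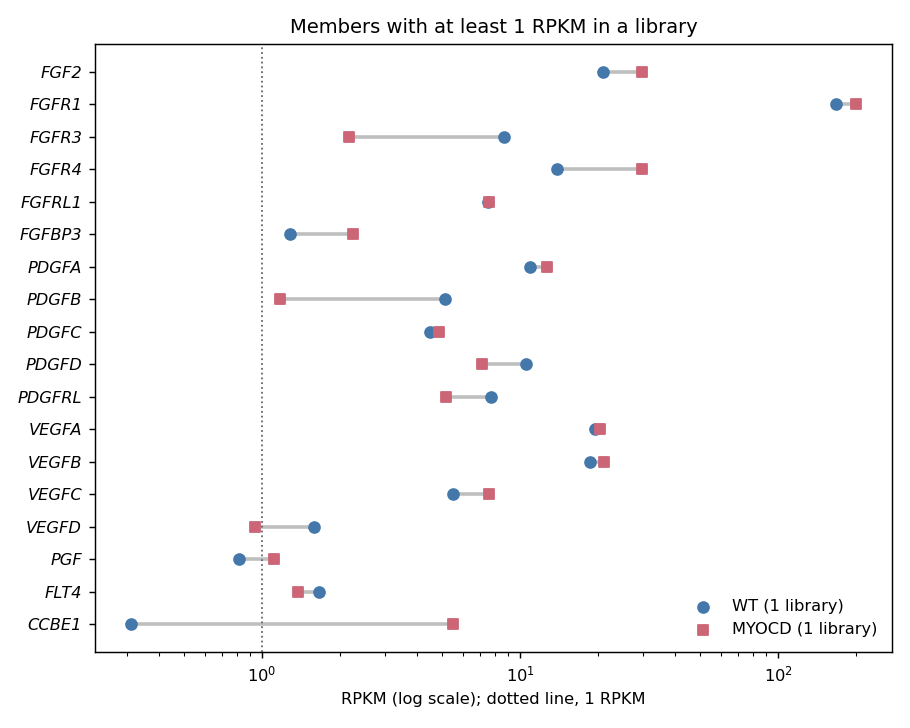
RPKM on a log scale of the 18 members with at least 1 RPKM in a library, with circles for the WT library, squares for the MYOCD library and grey lines joining the pair. CCBE1, FGFR3, PDGFB and FGFR4 have the longest lines, and FGFR1 lies far to the right of every other member at 168 and 201 RPKM.

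The depth behind these values could be estimated only roughly. Among 2528 genes whose lower value was at most 0.1 RPKM, the ratio of the MYOCD value to the WT value clustered near 1.15, with 482 genes within 0.1 on the log2 scale against 33 and 43 in windows of the same width to either side. Smaller clusters lay at 0.574, 2.29 and 3.44, where 1 read in MYOCD against 2 in WT, 2 against 1 and 3 against 1 would fall. These ratios put the depth of the MYOCD library at 0.872 of that of WT. From genes with a lone transcript, 1 read was worth about 0.0574 RPKM times kilobase in WT and 0.0674 in MYOCD, or a depth near 17400000 and 14800000 reads. The middle of the WT cluster ran from 0.0473 to 0.069, so exact whole reads were not recovered. The read numbers given below were computed with the longest protein-coding transcript and are rough upper figures. That spread comes from genes with a lone transcript. It leaves out the error in length for members with several transcripts, whose read numbers can be too high by more than the spread.

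The FGF receptors carried most of the expression of the 3 families. FGFR1 stood at 168 RPKM in WT and at 201 RPKM in MYOCD, above 97.5% of protein-coding genes in WT, with a log2 change of 0.26. FGFR4, a receptor that can pair with the coreceptor KLB for endocrine FGFs, stood at 13.9 RPKM in WT and at 29.8 RPKM in MYOCD, a ratio of 2.15 between the deposited values and a log2 change of 1.08, just past the 2-fold line. FGFR3 went the other way, from 8.68 RPKM in WT to 2.18 RPKM in MYOCD, a WT value 3.98 times the MYOCD value and a log2 change of -1.78. FGFR3 was number 59 from the lowest of the 12337 protein-coding genes, and up to about 670 reads in WT and 140 in MYOCD stood behind it. FGFR2 was low in both libraries, at 0.747 and 0.426 RPKM. FGFRL1, a receptor relative without a kinase domain, stood at 7.54 RPKM in WT and at 7.57 RPKM in MYOCD and was the member past the filter with the log2 change nearest to 0.

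FGFR4 and FGFR3 thus differed in opposite directions, and FGFR1 had the highest level of the 4 in both libraries. The ratio of FGFR4 to FGFR3, read per length, was 1.60 in WT and 13.7 in MYOCD, and the ratio of FGFR1 to FGFR4 was 12.1 in WT and 6.73 in MYOCD. Of the summed RPKM of FGFR1 to FGFR4 (190.9 in WT and 233.1 in MYOCD), FGFR1 made up 87.8% in WT and 86.1% in MYOCD. The share of FGFR4 was 7.26% in WT and 12.8% in MYOCD, and that of FGFR3 was 4.55% in WT and 0.935% in MYOCD. The values are sums over a gene's transcripts, so the alternative exons that set which ligands FGFR1, FGFR2 and FGFR3 bind cannot be read from them.

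**Figure D2:**
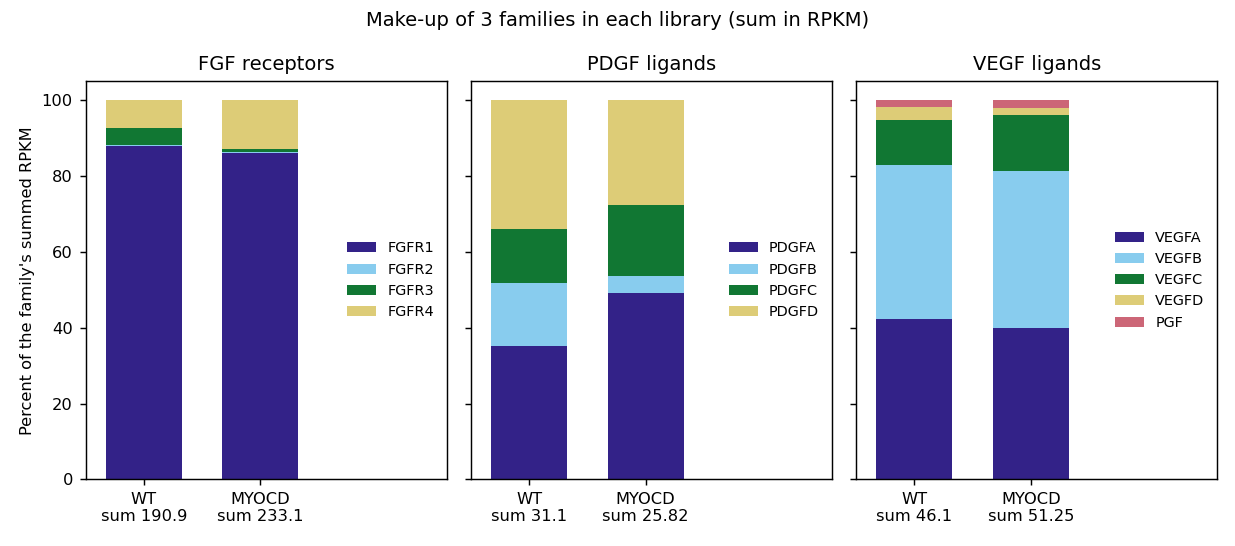
Stacked bars of the percent that each gene makes of its family's summed RPKM in the WT and MYOCD libraries, for FGFR1 to FGFR4, the 4 PDGF ligands and the 5 VEGF ligands, with the sum in RPKM under each bar. FGFR1 fills most of both receptor bars, PDGFB is 16.5% of the PDGF bar in WT and 4.54% in MYOCD, and the VEGF bars look much alike.

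Of the 18 FGF ligand genes, FGF2 alone passed the filter. FGF2, the basic FGF that leaves cells without a classical secretion signal, stood at 21.0 RPKM in WT and at 29.7 RPKM in MYOCD, a log2 change of 0.49. The gene lies on chromosome 4 from 122826708 to 122898236 (GRCh38, GENCODE 29) and its exons share 804 nt with those of NUDT6, which is transcribed from the opposite strand. NUDT6 stood at 21.5 RPKM in WT and at 31.8 RPKM in MYOCD, close to FGF2 in both libraries. No source used here says whether the authors' counting used strand, so reads of the shared stretch cannot be assigned to either gene, and their part in the FGF2 value was not tested. The 17 remaining FGF ligands were under 1 RPKM in both libraries. FGF3, FGF4, FGF6, FGF9, FGF10 and FGF21 were listed at 0 in both.

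The FGF-binding proteins release stored FGFs from the matrix. FGFBP3 stood at 1.29 RPKM in WT and at 2.25 RPKM in MYOCD, a log2 change of 0.62, from about 57 and 85 reads. FGFBP1 stood at 0.710 and 0.446 RPKM, from about 17 and 9 reads, and FGFBP2 was listed at 0 in both.

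The 4 PDGF ligand genes all passed the filter, and 1 of them was called. PDGFB, whose product forms the homodimer that binds both PDGF receptors, stood at 5.13 RPKM in WT and at 1.17 RPKM in MYOCD, a WT value 4.38 times the MYOCD value and a log2 change of -1.75. It lies on chromosome 22 from 39223359 to 39244751 and was number 63 from the lowest of the protein-coding genes past the filter. Up to about 310 reads in WT and 61 in MYOCD stood behind it. PDGFA stood at 10.9 RPKM in WT and at 12.7 RPKM in MYOCD. PDGFC and PDGFD encode ligands that proteases must cut before they bind. PDGFC stood at 4.49 and 4.85 RPKM, and PDGFD at 10.5 and 7.13 RPKM, a log2 change of -0.53.

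The ligand mix therefore differed more than its sum. The 4 genes summed to 31.1 RPKM in WT and 25.82 RPKM in MYOCD. PDGFA made up 35.2% of that sum in WT and 49.1% in MYOCD, and the ratio of PDGFA to PDGFB was 2.13 in WT and 10.8 in MYOCD. PDGFD was 33.9% of the sum in WT and 27.6% in MYOCD.

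Both PDGF receptor kinases were under 1 RPKM in both libraries and stood in opposite order in them. PDGFRA, the receptor for PDGF-A, -B and -C chains, stood at 0.0474 RPKM in WT and at 0.422 RPKM in MYOCD, from up to about 5.4 and 41 reads. The gene AC058822.1, which shares 1533 nt of exon with it on the same strand, stood at 0 and 0.0239 RPKM. PDGFRB, the receptor for PDGF-B and -D chains, stood at 0.432 RPKM in WT and at 0.00968 RPKM in MYOCD, from up to about 43 reads and 0.82 of a read. The PDGFRB value in MYOCD is thus no more than what a lone read would give. On the scale with the pseudocount the log2 changes were 0.75 for PDGFRA and -0.87 for PDGFRB, both under the 2-fold line. PDGFRL, a receptor-like gene without a kinase, stood at 7.72 RPKM in WT and at 5.18 RPKM in MYOCD, a log2 change of -0.53. Its exons share 277 nt with MTUS1 on the opposite strand, which stood at 87.6 RPKM in WT and at 47.9 RPKM in MYOCD, and the part of MTUS1 reads in the PDGFRL value was not tested.

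All 5 VEGF ligand genes passed the filter and none was called, against 11.8% of all genes and 6.11% of protein-coding genes past it. VEGFA, the main angiogenic ligand of KDR, stood at 19.6 RPKM in WT and at 20.5 RPKM in MYOCD, a log2 change of 0.06. VEGFB stood at 18.7 and 21.1 RPKM (log2 change of 0.17) and PGF, the placental growth factor gene, at 0.813 and 1.12 RPKM. PGF and VEGFB encode ligands of FLT1. The lymphatic ligands differed in sign: VEGFC stood at 5.47 RPKM in WT and at 7.61 RPKM in MYOCD (log2 change of 0.44, about 200 and 230 reads), and VEGFD at 1.60 and 0.938 RPKM (-0.54, about 57 and 28 reads). The ratio of VEGFC to VEGFD was 3.43 in WT and 8.11 in MYOCD. Summed over the 5 genes the level was 46.1 RPKM in WT and 51.25 RPKM in MYOCD. VEGFA shares 188 nt of exon with AL136131.3, an antisense gene listed at 93.2 RPKM in WT and at 124 RPKM in MYOCD. The part of AL136131.3 reads in the VEGFA value was not tested. Splice forms of VEGFA cannot be told apart in this table.

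The VEGF receptor genes were low. FLT1 and KDR were listed at 0 in both libraries, and FLT4, the receptor for VEGF-C and VEGF-D, stood at 1.67 RPKM in WT and at 1.38 RPKM in MYOCD, a log2 change of -0.21. Up to about 170 and 120 reads stood behind FLT4.

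CCBE1, a secreted matrix protein that helps the protease ADAMTS3 cut and so activate VEGF-C, had the largest log2 change of the members. It stood at 0.311 RPKM in WT and at 5.50 RPKM in MYOCD, a ratio of 17.7 and a log2 change of 2.89, and was number 18 from the highest of the 12337 protein-coding genes past the filter. CCBE1 passed the filter through the MYOCD library alone. Its log2 change depends on the pseudocount, at 3.77 with 0.1 RPKM and 2.31 with 1 RPKM. Up to about 35 reads in WT and 520 in MYOCD stood behind it. It lies on the minus strand of chromosome 18 from 59430939 to 59697662, and an antisense gene, AC010776.2, that shares 355 nt of exon with it was listed at 0 in WT and at 0.730 RPKM in MYOCD. The part of AC010776.2 reads in the CCBE1 value was not tested. The protease gene ADAMTS3 was at 0.0117 RPKM in WT and at 0.0696 RPKM in MYOCD.

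**Figure D3:**
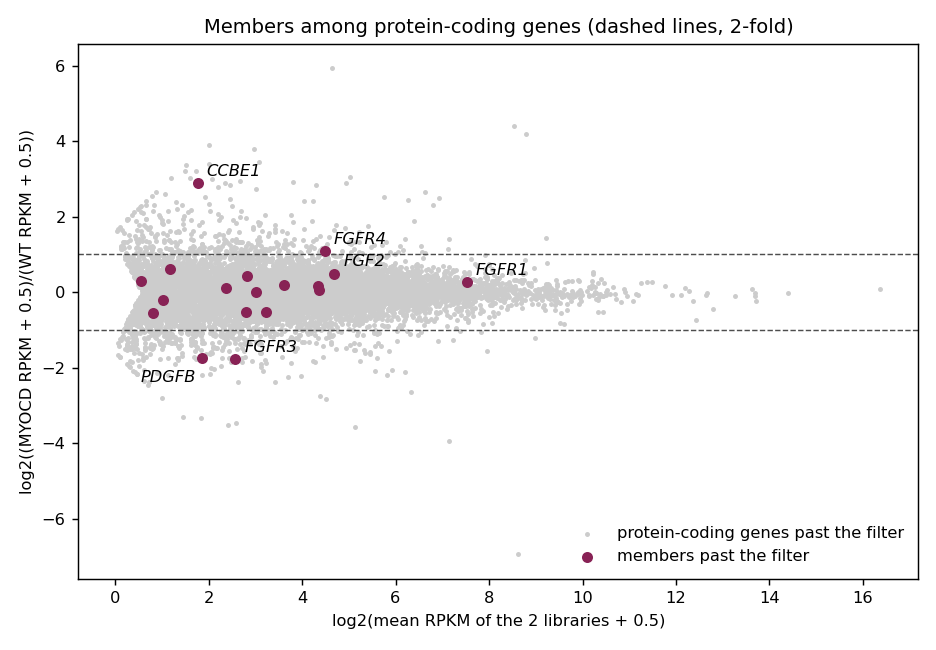
Log2 change of MYOCD over WT against log2 of the mean RPKM plus 0.5 for the 12337 protein-coding genes past the filter (grey) with the 18 members past it (dark points), and dashed lines at 2-fold. CCBE1 and FGFR4 lie above the upper line, FGFR3 and PDGFB below the lower line, and the other members lie between the lines.

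The 28 members under 1 RPKM comprised 9 listed at 0 in both libraries and 19 above 0 in at least 1. The 19 reached at most 0.747 RPKM, and 15 of them were above 0 in both libraries, 12 lower and 3 higher in MYOCD. As ratios of the deposited values, 6 of the 15 were lower and 2 were higher by 2-fold or more, none of which reached the 2-fold line on the scale with the pseudocount. Of the 4 others, 3 were above 0 in WT alone (FGF8, FGF16 and FGF20) and 1 in MYOCD alone (FGF23). The MYOCD library was the shallower by the estimate above, and the part of depth in these zeros was not tested. FGF16 in WT and FGF23 in MYOCD rested on about 0.99 and 1.1 reads, the level of a lone read.

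The low FGF ligands belong to several subfamilies. FGF1, the acidic relative of FGF2 that binds every FGF receptor, stood at 0.131 RPKM in WT and at 0.0358 RPKM in MYOCD, from up to about 9.2 and 2.2 reads. FGF20 had the highest value of the 17 and was listed at 0.244 RPKM in WT and at 0 in MYOCD, from up to about 7.2 reads. FGF18, a ligand known from skeletal and lung development, stood at 0.208 and 0.0932 RPKM, from about 7.2 and 2.7 reads, and FGF22 at 0.206 and 0.210 RPKM, from up to about 4.7 and 4.1 reads. FGF7, the keratinocyte growth factor made by mesenchymal cells for epithelia, stood at 0.118 and 0.0865 RPKM. It has near-identical pseudogene copies, so its value is uncertain where the authors' counting split shared reads. FGF19, an endocrine FGF that acts through FGFR4, stood at 0.0476 and 0.0284 RPKM, from about 2 reads and 1 read. FGF5 (0.0939 and 0.0351 RPKM) and FGF17 (0.0808 and 0.0237 RPKM) rested on up to about 8.6 and 2.7 reads and 2.4 and 0.6 of a read. Read numbers this small carry a wide counting error, and no difference is read from them.

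The intracellular FGF homologous factors FGF11 to FGF14, which bind voltage-gated sodium channels rather than receptors, were among the highest of these low members. FGF11 stood at 0.715 RPKM in WT and at 0.695 RPKM in MYOCD, and FGF12 at 0.532 and 0.483 RPKM. The exons of FGF11 share 4175 nt with AC113189.4 on the same strand (0 and 0.0650 RPKM). FGF13 stood at 0.494 RPKM in WT and at 0.0167 RPKM in MYOCD, from up to about 170 and 4.8 reads. FGF14, named after its values were seen, stood at 0.0642 RPKM in WT and at 0.411 RPKM in MYOCD, from up to about 14 and 79 reads. FGF13 and FGF14 thus stood in opposite order in the 2 libraries. The exons of FGF14 share 4354 nt with ITGBL1 on the opposite strand (0.565 and 0.988 RPKM), and the part of ITGBL1 reads in the FGF14 value was not tested.

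**Figure D4:**
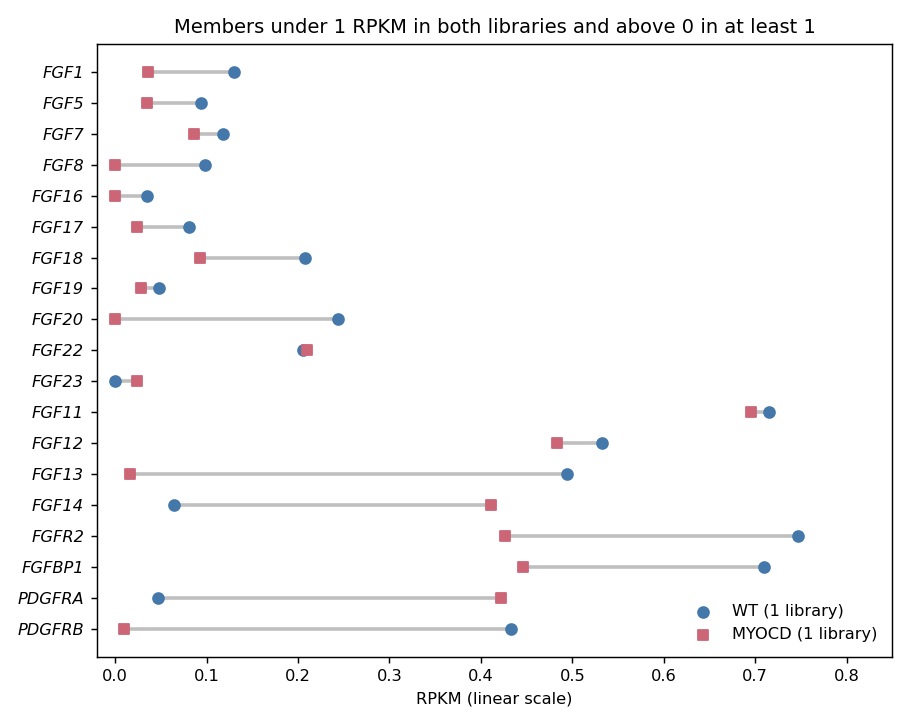
RPKM on a linear scale of the 19 members under 1 RPKM in both libraries and above 0 in at least 1, with circles for WT and squares for MYOCD. FGF13 (0.494 RPKM) and PDGFRB (0.432 RPKM) in WT lie far to the right of their MYOCD squares, while FGF14 (0.411 RPKM) and PDGFRA (0.422 RPKM) in MYOCD lie far to the right of their WT circles.

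Promoter windows of the 250 bases before each annotated start were taken from RefSeq on GRCh38.p14, which held 54 windows for 33 of the 46 members. Of the 18 members past the filter, 12 had a window, and the others, FGFR1 and PDGFB among them, were not searched. Shown are the windows of the called members that had one, CCBE1, FGFR3 and FGFR4 (with its 2 starts). PDGFA has windows at several starts. Also shown is the PDGFA window that holds the sole CArG box, the SRF binding motif, among the windows of those 12. The other PDGFA windows hold GC boxes and no CArG box. Capitals mark matches to any motif searched on both strands: the CArG box, AP-1 (TGANTCA), the GC box (GGGCGG), the TATA box (TATAAA), a hypoxia core (ACGTG) and an ETS core (CCGGAAGT). Each sequence reads in the direction of the gene and ends at the base before the start.
CCBE1, chr18:59697424-59697673, minus strand: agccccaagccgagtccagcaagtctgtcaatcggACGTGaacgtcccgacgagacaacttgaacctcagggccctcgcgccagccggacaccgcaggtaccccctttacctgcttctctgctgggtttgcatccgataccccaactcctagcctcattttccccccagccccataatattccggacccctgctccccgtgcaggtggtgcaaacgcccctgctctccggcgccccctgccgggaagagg
FGFR3, chr4:1793043-1793292, plus strand: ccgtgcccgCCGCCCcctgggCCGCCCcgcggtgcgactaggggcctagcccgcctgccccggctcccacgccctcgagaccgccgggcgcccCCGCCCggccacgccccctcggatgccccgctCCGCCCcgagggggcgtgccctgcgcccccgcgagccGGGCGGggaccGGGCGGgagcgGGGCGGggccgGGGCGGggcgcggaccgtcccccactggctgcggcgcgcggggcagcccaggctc
FGFR4 first start, chr5:177086665-177086914, plus strand: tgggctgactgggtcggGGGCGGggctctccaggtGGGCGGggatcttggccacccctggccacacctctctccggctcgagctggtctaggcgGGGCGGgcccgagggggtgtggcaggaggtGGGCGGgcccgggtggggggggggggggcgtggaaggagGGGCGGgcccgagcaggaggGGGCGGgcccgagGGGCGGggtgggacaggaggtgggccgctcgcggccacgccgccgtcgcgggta
FGFR4 second start, chr5:177089300-177089549, plus strand: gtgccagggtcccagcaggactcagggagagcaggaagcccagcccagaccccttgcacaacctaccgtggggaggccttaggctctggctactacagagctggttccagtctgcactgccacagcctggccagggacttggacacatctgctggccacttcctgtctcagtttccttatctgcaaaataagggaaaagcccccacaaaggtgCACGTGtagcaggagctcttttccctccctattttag
PDGFA, chr7:520227-520476, minus strand: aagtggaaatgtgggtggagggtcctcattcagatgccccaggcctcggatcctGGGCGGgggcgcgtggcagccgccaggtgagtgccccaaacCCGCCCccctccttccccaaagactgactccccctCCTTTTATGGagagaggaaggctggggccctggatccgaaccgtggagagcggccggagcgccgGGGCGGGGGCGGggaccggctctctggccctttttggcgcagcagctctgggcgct

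The windows of the called members differed in base composition. The FGFR3 window is 86.8% G and C, the highest of all member windows, with GC boxes on both strands, while the CCBE1 window is 63.2% G and C and has an ACGTG as its sole match. The first FGFR4 window is 79.6% G and C and full of GC boxes, and the second is 57.2% G and C and has none. Over the 54 member windows the median was 63.6% against 58.0% over the 35116 windows of all genes. GC boxes were in 59.3% of member windows and 42.6% of all windows, and hypoxia cores in 24.1% and 18.5%. CArG boxes were in 3 of the 54 member windows (FGF3, FGFBP2 and PDGFA) and in 1.16% of all windows. AP-1 matches were in 7.41% of member windows and 6.57% of all windows, TATA boxes in 7.41% and 10.7%, and ETS cores in 0 of 54 and 3.42%. Windows of 1 gene can overlap, an ACGTG can lie within a CACGTG on both strands, and a match is letters in a window and no evidence of binding. PDGFA, the member past the filter with a CArG box (at -120 in the window shown), had a log2 change of 0.20.

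Genes that act with these ligands were counted in 7 lists. Over all genes past the filter the median was -0.00 and 11.8% were called, and over the protein-coding genes 6.11% were called. In the list of coreceptors and heparan sulfate core proteins, 10 of 16 genes passed the filter, 1 was higher, 0 were lower and the median log2 change was -0.08. The higher gene was NRP2, the neuropilin that binds VEGF-C and class 3 semaphorins, at 55.6 RPKM in WT and at 130 RPKM in MYOCD, a log2 change of 1.21. Its relative NRP1, a VEGF-A coreceptor, stood at 87.3 and 91.6 RPKM, and the glypican gene GPC1 at 97.4 and 79.4 RPKM. The FGF coreceptor genes KL and KLB stood at 0 in both libraries and at 0.482 and 0.214 RPKM. Of the 14 enzymes that build and edit heparan sulfate, 10 passed the filter and 0 were called, with a median of -0.04. EXT2 (34.9 and 44.7 RPKM) and NDST1 (33.6 and 40.1 RPKM) build and sulfate the chains, and SULF2 (31.0 and 23.5 RPKM) removes sulfate from them.

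Among 11 proteases that process growth factor ligands, 6 passed the filter, all 6 were above 0, 1 was higher, 0 were lower and the median log2 change was 0.27. The higher one was PCSK5, a proprotein convertase that can cut VEGF-C, at 1.86 RPKM in WT and at 10.0 RPKM in MYOCD, a log2 change of 2.15. FURIN, the most widely expressed convertase, stood at 11.6 and 14.1 RPKM, and PLAU, the urokinase that can activate PDGF-D, at 59.1 and 61.3 RPKM.

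All 26 shared signal transducers passed the filter, 0 were called, 13 were above 0 and the median was 0.02. AKT2 stood at 134 and 161 RPKM, the adaptor gene SHC1 at 124 and 115 RPKM and the kinase gene MAP2K2 at 101 and 99.3 RPKM. PIK3R1 (6.26 and 10.5 RPKM, a log2 change of 0.70) and HRAS (30.01 and 48.5 RPKM, 0.69), named after their values were seen, lay nearest to the 2-fold line. Of 19 ERK response and feedback genes, 17 passed the filter, 0 were higher, FOS was lower and 6 were above 0, with a median of -0.29. FOS, an immediate early gene of ERK and SRF signalling, stood at 4.67 RPKM in WT and at 1.02 RPKM in MYOCD, a log2 change of -1.77. CCND1 stood at 166 and 133 RPKM and MYC at 57.1 and 75.2 RPKM. The feedback genes DUSP6 (3.27 and 2.15 RPKM) and SPRY2 (3.17 and 1.69 RPKM) and the ETS factor genes ETV4 (23.8 and 16.5 RPKM) and ETV5 (14.4 and 20.8 RPKM), named after their values were seen, lay under 2-fold in either direction.

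**Figure D5:**
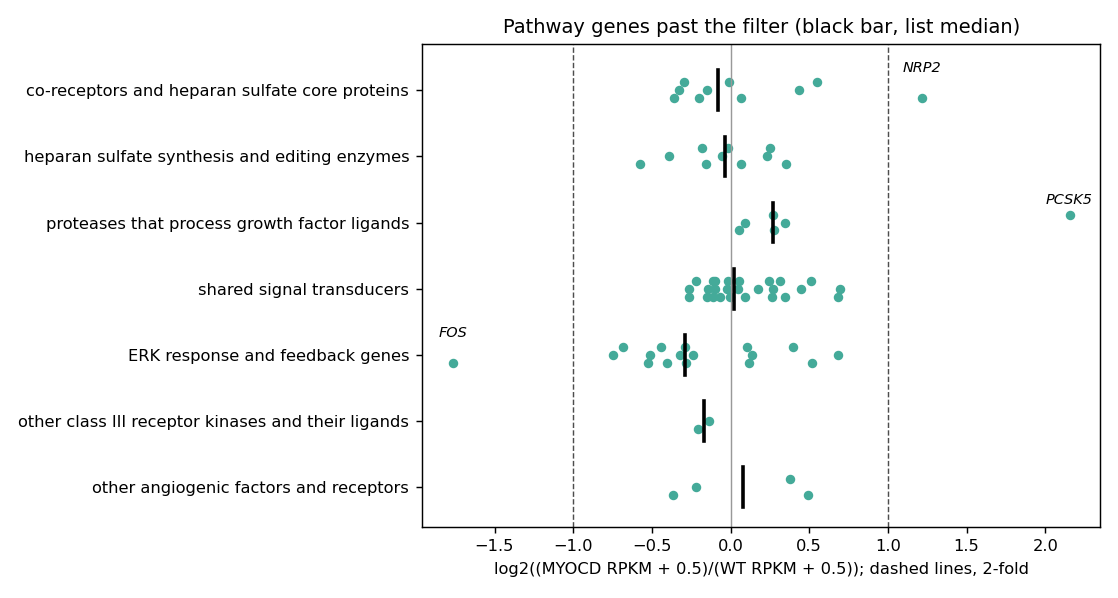
Log2 change of MYOCD over WT for each gene past the filter in 7 lists of genes that act with or beside the 3 families, with a black bar at each list's median and dashed lines at 2-fold. NRP2 and PCSK5 lie above the upper line, FOS lies below the lower line, and the medians run from -0.29 to 0.27.

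Of 7 other genes of class III receptor kinases and their ligands, relatives of the PDGF system, the 2 past the filter were the ligand genes CSF1 (15.5 and 14.0 RPKM) and KITLG (12.1 and 10.4 RPKM), with 0 called and a median of -0.17. The receptor genes KIT, CSF1R and FLT3 were at most 0.148 RPKM in either library. Of 11 other angiogenic factors and receptors, 4 passed the filter and 0 were called, with a median of 0.08. EGFL7 stood at 23.7 and 18.2 RPKM, ANGPTL4 at 11.99 and 17.0 RPKM and VASH1 at 2.82 and 3.81 RPKM.

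Markers of endothelial cells, of fibroblasts and mural cells, and of lung epithelium were counted in 3 lists. Past the same filter, 11.8% of all genes and 6.11% of protein-coding genes were called. With so few markers past the filter, the counts are given as a description. Of 10 endothelial markers, ESAM alone passed the filter and was higher (1.40 and 3.50 RPKM, a log2 change of 1.07). The summed level was 2.28 RPKM in WT and 3.88 RPKM in MYOCD, and CDH5, VWF, TEK and EMCN were listed at 0 in both, as were KDR and FLT1. Of 10 fibroblast and mural cell markers, 4 passed the filter, 1 was higher, 0 were lower and the median log2 change was 0.20, with DCN and FAP listed at 0 in both and a summed level of 16.3 RPKM in WT and 28.2 RPKM in MYOCD. The higher gene was the collagen gene COL1A1 (3.05 and 14.3 RPKM, a log2 change of 2.06). The others past the filter were the smooth muscle actin gene ACTA2 (8.28 and 8.97 RPKM), RGS5 (2.62 and 3.33 RPKM) and THY1 (1.91 and 0.959 RPKM, a log2 change of -0.73). The part of such cells in the PDGFRA and PDGFRB values, which differed in opposite directions, was not tested. Of 11 lung epithelial markers 6 passed the filter, 1 was higher, 0 were lower and the median was -0.04. The higher gene was EPCAM, an epithelial adhesion gene, at 0.889 RPKM in WT and at 2.57 RPKM in MYOCD, a log2 change of 1.15. EPCAM passed the filter through the MYOCD library alone. KRT18 (1647 and 1134 RPKM) and KRT8 (1523 and 1059 RPKM) were the most abundant, followed by CDH1 (35.0 and 35.8 RPKM), while KRT19 stood at 2.94 and 3.24 RPKM and AGER at 1.26 and 1.12 RPKM. The alveolar genes SFTPC and SFTPA2 were listed at 0 in both, in a line labelled as of lung.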

How the data were processed

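RNA of 2 A549 libraries, 1 WT and 1 MYOCD, was analysed from a table in which the authors deposited RPKM values for 57979 gene rows. Per the submitters' processing notes, Bowtie 0.12.2 was among the tools, and the builds listed were GRCh38.p12 and mm8, a mouse assembly whose role is not stated. The counting tool, its annotation and its strand setting are not given in sources used here. A symbol on several rows (248 symbols) used the row with the highest mean RPKM. Types, positions and transcript lengths came from GENCODE 29, which held 57375 of the identifiers and all 46 members. The log2 change used a pseudocount of 0.5 RPKM, which understates the change of low genes, and genes with at least 1 RPKM in a library were counted. No test was possible with 1 library per group, and RPKM are no counts. Every member past the filter was named, as were the 5 highest of those under it and those at 0. List genes at or beyond 2-fold were named, with the most abundant added up to 3. The other low members, the genes that overlap members, and KL, KLB, ADAMTS3, PIK3R1, HRAS, DUSP6, SPRY2, ETV4, ETV5 and the list genes added beyond this rule were named after their values were seen. The members and lists were chosen with earlier results of these data known. Scripts ran in Python 3.11.15 with numpy 2.4.6 and pandas 2.3.3, and were tested on simulated data.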

Additional observations from a re-analysis of the deposited data

How the results depend on the processing

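The members called higher (CCBE1 and FGFR4) and lower (FGFR3 and PDGFB) were the same 2 and 2 under all 8 alternatives: a pseudocount of 0.1 or 1 RPKM, no filter, a filter of at least 5 RPKM in a library or a mean of 1 RPKM, trimmed mean scaling, the same total RPKM, and summed rows of a symbol. Most of these 8 alternatives could not have changed the calls. Each member is on 1 row, and the scaling factors of the MYOCD library were 0.998 and 1.007. Each called member had at least 5 RPKM in a library, so the stricter filters kept it. A pseudocount of 0.1 RPKM only enlarges a change, and the uncalled members past the filter had ratios of at most 1.75 (FGFBP3). Without a filter, none of the added members reached 2-fold at the pseudocount of 0.5 RPKM. Only the pseudocount of 1 RPKM could have removed a called member. The run without a filter kept the pseudocount of 0.5 RPKM, and a smaller pseudocount was not run without the filter. As ratios of the deposited values, 6 members under 1 RPKM were lower and 2 were higher by 2-fold or more. The median of the members was 0.00 without a filter, where all 46 enter and 9 are at 0 in both libraries. With a pseudocount of 0.1 and 1 RPKM the log2 change of CCBE1 was 3.77 and 2.31, that of PDGFB -2.04 and -1.50, that of FGFR3 -1.95 and -1.61, that of FGFR4 1.10 and 1.05, that of FGFBP3 0.76 and 0.51, that of VEGFD -0.71 and -0.42 and that of PGF 0.41 and 0.22. The median of the other angiogenic factors and receptors was -0.03 without a filter. FOS left the count with at least 5 RPKM, since it is under that level in both libraries. The scaling alternatives moved the median of all genes by under 0.1. The called share of all genes was 4.74% without a filter and 15.2% with a pseudocount of 0.1 RPKM. Depth limits the members under 1 RPKM. Several of them rest on a few reads, while up to about 170 stood behind FGF13 in WT and 79 behind FGF14 in MYOCD. No paired analysis was possible because each group has 1 library. Leaving out a library was likewise not possible.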
